A study of Saccharomyces cerevisiae with 12 samples.

Results

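The genes of lysine synthesis were followed across 12 cultures of the yeast Saccharomyces cerevisiae, strain S288C, measured on Affymetrix arrays with 1 array per culture. The members are LYS20, LYS21, LYS4, LYS12, LYS2, LYS9, LYS1 and LYS14, taken by gene symbol from the platform annotation. They are 8 of the 5656 genes that the array names singly, and each is read by 1 probe set of the 9275 tested. Cultures started at an OD600 of 0.1, grew for 1 h at 30 °C and then received a compound or the solvent alone for 5 h. The 4 groups of 3 arrays were control (vehicle only), tomatidine at 0.625 ppm, tomatine at 13.9 ppm and fenpropimorph at 0.313 ppm, with dimethylformamide as the solvent that the labels name. Titles of the samples gave these compounds and doses, and their source field, which reads 15 uM tomatidine on all 12 including controls, was not used for grouping. Each of 3 days gave 1 culture of every group, and an array is named here by its group and day, so that control 2 is the control of day 2.

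Yeast makes lysine by the aminoadipate pathway, which fungi use and plants and most bacteria do not. Homocitrate synthase joins acetyl-CoA to 2-oxoglutarate, and this entry step is inhibited by lysine itself. The following steps lead through homoisocitrate to aminoadipate, which is reduced, joined to glutamate as saccharopine and split to give lysine. The transcription factor Lys14 activates the pathway genes when the intermediate aminoadipate semialdehyde is present, and Gcn4, the activator of the general amino acid control, adds a further input. Tomatine is a steroidal glycoalkaloid of tomato, tomatidine is the same steroid without its sugars, and fenpropimorph is a morpholine fungicide that acts on sterol synthesis.

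Values below are the authors' RMA signals on a linear scale. Log2 fold changes come from 1 limma fit to all 12 arrays, ± is the standard error of the fit unless SD is named, n = 3 arrays per group, and a gene is called at a Benjamini-Hochberg adjusted p under 0.05 over the 9275 probe sets. The 3 comparisons with control share the same control arrays. Shares of probe sets called are at the adjusted threshold. Counts of genes at an unadjusted p under 0.05 between groups have no matching share and cannot be set against them. Array medians lay between 77.2 and 78.6. Precision is limited by the number of arrays, and the p-values rest on how cultures of 1 group varied across the 3 days. The alpha mating type of S288C showed in the 4 alpha-specific genes, each brighter than at least 90.8% of probe sets, while the 6 a-specific genes were brighter than 7.69% to 54.6%. RNA came from whole cultures, so more cells expressing a gene and more RNA per cell cannot be told apart.

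All 8 lysine genes differed among the 4 groups by the moderated F test, against 37.2% of all probe sets. With tomatidine 7 of the 8 rose, against 2.53% of all probe sets called higher, and the median log2 fold change over the 8 was 0.51, against -0.02 over all probe sets. With tomatine 0 of 8 passed the test in either direction, against 4.36% of all probe sets (limma; 3 of 8 at an unadjusted p under 0.05), and the median was -0.01. Tomatine arrays lay clear above control for 1 gene and clear below for 3, against 14.1% and 10.5% of all probe sets. With fenpropimorph 1 rose and 2 fell, against 13.4% called higher and 16.9% called lower over all probe sets, with a median of 0.01. Fenpropimorph arrays lay clear above control for 1 gene and clear below for 2, against 17.9% and 26.9%. On all 8 genes the 3 tomatidine arrays lay above the 3 control arrays, which was so for 10.7% of all probe sets.

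**Figure D1:**
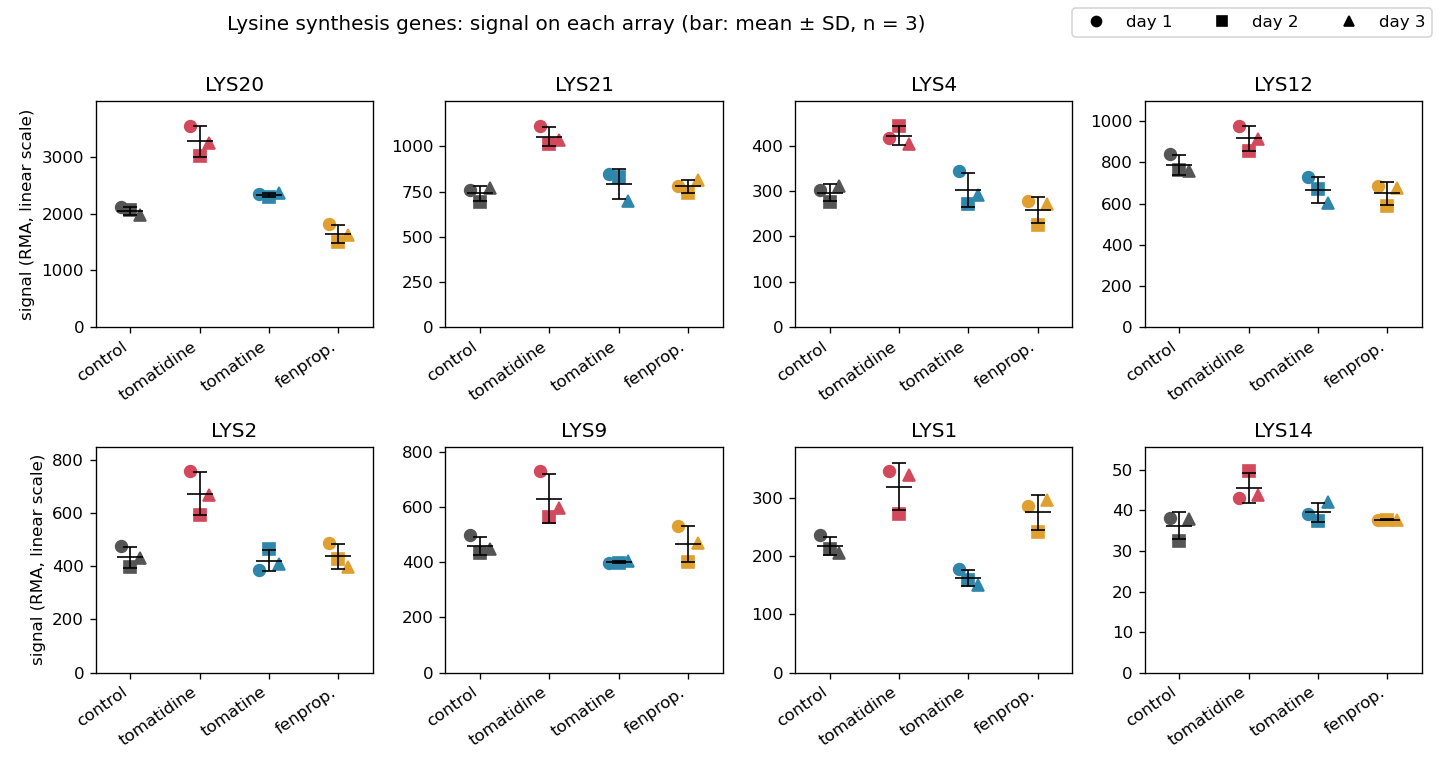
Signal (RMA, linear scale, y axis from 0) of each lysine gene on the 12 arrays, grouped on the x axis by treatment (fenprop. is fenpropimorph). Symbols mark the day, and bars are the mean ± SD of 3 arrays. Tomatidine arrays lie above control arrays for all 8 genes.

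The homocitrate synthases LYS20 and LYS21 are close paralogues that catalyse the same entry step. LYS20 was the brightest member, with signals of 2119, 2059 and 1973 on control arrays of days 1 to 3, and 3550, 3016 and 3248 with tomatidine. With tomatine LYS20 gave 2345, 2286 and 2357, and with fenpropimorph 1813, 1502 and 1617. No 2 of these groups overlapped, and their order from low to high was fenpropimorph, control, tomatine and tomatidine. LYS20 rose 1.59-fold with tomatidine (log2 fold change 0.67 ± 0.0809, limma adjusted p = 0.000496) and was 1.25-fold lower with fenpropimorph (log2 fold change -0.32, adjusted p = 0.0102). Its tomatine value was 0.18 on the log2 scale (95% interval 0.01 to 0.36, adjusted p = 0.25), so control and tomatine, neighbours in that order, did not pass the test. Both calls of LYS20 held in all 16 alternatives.

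LYS21 gave signals of 760, 692 and 769 in control and 1115, 1012 and 1034 with tomatidine. Tomatine arrays read 848, 829 and 700, and fenpropimorph arrays 781, 744 and 814. For LYS21 the tomatidine arrays were apart from all others, while the remaining groups overlapped. The gene rose 1.42-fold with tomatidine (log2 fold change 0.51 ± 0.0837, limma adjusted p = 0.00432), a call kept in all 16 alternatives. Against control, LYS21 had log2 fold changes of 0.09 with tomatine (95% interval -0.09 to 0.28) and 0.07 with fenpropimorph (95% interval -0.11 to 0.26), and neither passed. Since the paralogues are alike in sequence, some signal of either probe set may come from the other gene, and probe sequences were not used here.

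LYS4 encodes homoaconitase, a mitochondrial iron-sulfur enzyme, and LYS12 the homoisocitrate dehydrogenase that follows it. LYS4 signals were 302, 276 and 311 in control, 418, 444 and 403 with tomatidine, 343, 271 and 292 with tomatine, and 278, 225 and 272 with fenpropimorph. Only the tomatidine arrays of LYS4 were clear of control. LYS4 rose 1.42-fold with tomatidine (log2 fold change 0.51 ± 0.103, limma adjusted p = 0.015), and the call was lost without control 2 (adjusted p = 0.0645) and without tomatidine 2 (adjusted p = 0.0792). Its fenpropimorph value was -0.20 (95% interval -0.43 to 0.02, adjusted p = 0.167) and its tomatine value 0.02 (95% interval -0.20 to 0.25). With array weights LYS4 passed as lower with fenpropimorph (limma adjusted p = 0.0497).

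LYS12 gave 841, 760 and 757 in control, 978, 857 and 913 with tomatidine, 728, 668 and 603 with tomatine, and 687, 586 and 675 with fenpropimorph. The tomatine and fenpropimorph arrays of LYS12 overlapped each other below control, and the tomatidine arrays were above it. LYS12 was the single member not called with tomatidine, at a log2 fold change of 0.22 (95% interval 0.02 to 0.42, limma adjusted p = 0.242). With fenpropimorph LYS12 was 1.21-fold lower (log2 fold change -0.28 ± 0.0908, limma adjusted p = 0.0364). That call was lost with centred array medians (adjusted p = 0.0523) and without control 1 (0.123), control 2 (0.056), control 3 (0.0579), fenpropimorph 2 (0.148) or fenpropimorph 3 (0.0521). With tomatine the value for LYS12 was -0.24 (95% interval -0.44 to -0.04, adjusted p = 0.174).

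LYS2 encodes aminoadipate reductase, the enzyme that gives the semialdehyde sensed through Lys14. LYS2 signals were 475, 395 and 429 in control and 757, 594 and 667 with tomatidine. Tomatine arrays of LYS2 read 387, 464 and 408, and fenpropimorph arrays 486, 428 and 396. Tomatidine arrays stood above all 9 others, which overlapped among themselves. LYS2 rose 1.55-fold with tomatidine (log2 fold change 0.63 ± 0.112, limma adjusted p = 0.00716) in all 16 alternatives, and its values with tomatine (-0.05, 95% interval -0.29 to 0.20) and fenpropimorph (0.01, 95% interval -0.24 to 0.26) did not pass.

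LYS9 encodes the saccharopine dehydrogenase that joins the semialdehyde to glutamate. Its signals were 498, 433 and 448 in control, 731, 564 and 597 with tomatidine, 399, 396 and 404 with tomatine, and 532, 400 and 469 with fenpropimorph. The tomatine arrays of LYS9 lay close together (399.8 ± 4.22, SD, n = 3) and all below control, while fenpropimorph arrays overlapped control. LYS9 rose 1.37-fold with tomatidine (log2 fold change 0.45 ± 0.114, limma adjusted p = 0.0481). This call was lost without any 1 of the 6 control and tomatidine arrays (adjusted p = 0.0707, 0.162 and 0.121 without control 1, 2 and 3, and 0.162, 0.0585 and 0.0763 without tomatidine 1, 2 and 3). It was also lost with only the 2 compared groups in the fit (adjusted p = 0.0909). The tomatine value of LYS9 was -0.20 (95% interval -0.45 to 0.05, adjusted p = 0.396) and its fenpropimorph value 0.02 (95% interval -0.23 to 0.27).

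LYS1 encodes the saccharopine dehydrogenase that releases lysine in the closing step. LYS1 signals were 235, 212 and 205 in control and 346, 272 and 338 with tomatidine. With tomatine LYS1 read 178, 160 and 150, and with fenpropimorph 286, 241 and 297. The tomatine arrays were all below control and the fenpropimorph arrays all above it, and fenpropimorph overlapped tomatidine. LYS1 rose 1.46-fold with tomatidine (log2 fold change 0.55 ± 0.112, limma adjusted p = 0.0158) and 1.26-fold with fenpropimorph (log2 fold change 0.34, adjusted p = 0.0399).

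With tomatine the log2 fold change of LYS1 was -0.42 (95% interval -0.66 to -0.18, limma adjusted p = 0.0573), the lowest tomatine value among the members, with -0.41, -0.41 and -0.45 against the control of the same day. It missed the threshold in the fit reported, and passed it with the day as a replicate block (adjusted p = 0.0323) and in 5 other alternatives. The tomatidine call of LYS1 was lost without control 2 (adjusted p = 0.0579), control 3 (0.0615), tomatidine 1 (0.0713) or tomatidine 3 (0.0586). Its fenpropimorph call was lost with array weights (adjusted p = 0.0776) and without control 2 (0.0995), control 3 (0.125), fenpropimorph 1 (0.106) or fenpropimorph 3 (0.135).

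LYS14, the regulator, was the dimmest member, brighter than 35.4% of probe sets where the enzymes were brighter than 74.8% or more. Its signals were 38.2, 32.4 and 38.0 in control, 43.1, 49.7 and 43.9 with tomatidine, 39.2, 37.4 and 42.0 with tomatine, and 37.5, 37.7 and 37.8 with fenpropimorph. Only the tomatidine arrays of LYS14 were apart from control. LYS14 rose 1.26-fold with tomatidine (log2 fold change 0.33 ± 0.0828, limma adjusted p = 0.0441), the smallest of the 7 called rises. With the day as a replicate block its adjusted p was 0.0734, and the call was also lost with array weights (0.0506), with only the 2 compared groups (0.135) and without any 1 of the 6 control and tomatidine arrays (0.0621 to 0.188). Tomatine and fenpropimorph gave 0.13 (95% interval -0.05 to 0.31) and 0.06 (95% interval -0.12 to 0.24).

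**Figure D2:**
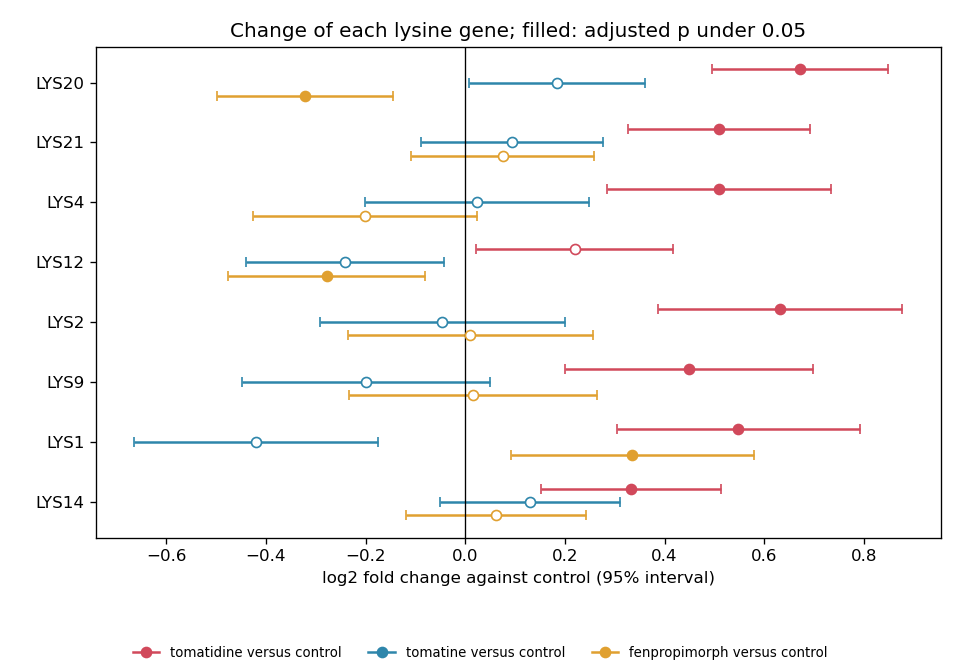
Log2 fold change against control (x axis) of each lysine gene with its 95% interval, for the 3 compounds. Filled points have an adjusted p under 0.05. The tomatidine points of all 8 genes are above 0, from 0.22 (LYS12) to 0.67 (LYS20), while the tomatine and fenpropimorph points of LYS1 lie on opposite sides of 0.

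The count of 7 genes called with tomatidine rested in part on single arrays. It was 3 without control 2, 4 without control 3, 4 without tomatidine 1, 4 without tomatidine 2 and 4 without tomatidine 3. LYS20, LYS21 and LYS2 kept their calls in each of these fits. Against the control of the same day, all 8 genes were higher with tomatidine on each of the 3 days, with log2 differences of 0.74, 0.55 and 0.72 for LYS20 and 0.67, 0.59 and 0.63 for LYS2. The 3′ to 5′ signal ratio of SPT15, a gene the array carries for RNA quality, was lower with tomatidine. On the log2 scale it was 1.82 ± 0.285 (SD, n = 3; range 1.49 to 2.02) against 2.33 ± 0.174 in control (2.21 to 2.53). For ACT1 it was 0.46 ± 0.128 against 0.35 ± 0.0244 (SD, n = 3). For SRB4, carried for the same use, it was 1.23 ± 0.105 against 1.13 ± 0.0557 (SD, n = 3), with overlap. The means of ACT1 and SRB4 were thus higher with tomatidine where that of SPT15 was lower. The part of RNA quality in the lysine gene results was not tested.

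The treated cultures were also set against each other. Doses in ppm differ between the compounds, so these comparisons are between cultures as treated, not between equal amounts of compound. With tomatine 7 of the 8 lysine genes were lower than with tomatidine, against 2.89% of all probe sets, at a median log2 difference of -0.49. LYS1 was 1.96-fold lower (log2 difference -0.97 ± 0.112, limma adjusted p = 0.000362), LYS2 1.6-fold lower and LYS9 1.57-fold lower (adjusted p = 0.00439 and 0.00625). LYS14 did not pass (-0.20, 95% interval -0.38 to -0.02, adjusted p = 0.199). On all 8 genes the tomatine arrays lay below the tomatidine arrays, which was so for 10.2% of all probe sets. Without tomatidine 1 the count of 7 was 4, with LYS21, LYS4 and LYS12 lost (adjusted p = 0.0696, 0.0622 and 0.0629). LYS4 was also lost without tomatidine 2 (0.073), tomatine 2 (0.0685) or tomatine 3 (0.062), and with only the 2 compared groups LYS4 and LYS21 were both lost (0.0506 and 0.0673).

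With fenpropimorph 7 of the 8 were lower than with tomatidine, against 17% of all probe sets. The same 7 had fenpropimorph arrays wholly below tomatidine arrays, against 25.4%. LYS20 was 1.99-fold lower (log2 difference -0.99 ± 0.0809, limma adjusted p = 3.67e-06) and LYS4 1.64-fold lower (adjusted p = 0.000271). The exception was LYS1, whose groups overlapped (log2 difference -0.21, 95% interval -0.46 to 0.03, adjusted p = 0.186). It passed without tomatidine 2 (adjusted p = 0.0487) and with array weights (0.0432). Without tomatidine 1 and without fenpropimorph 2 the call of LYS9 was lost (adjusted p = 0.0547 and 0.0585). That of LYS14 was lost without tomatidine 2 (0.106), fenpropimorph 1 (0.0601), fenpropimorph 2 (0.0686) or fenpropimorph 3 (0.0627).

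Between fenpropimorph and tomatine, LYS1 was 1.69-fold higher with fenpropimorph (log2 difference 0.76 ± 0.112, limma adjusted p = 0.000211) and LYS20 1.42-fold lower (log2 difference -0.51, adjusted p = 0.000374). These 1 higher and 1 lower gene of 8 stand against 15.9% and 22.5% of all probe sets. LYS9 passed as a further gene without fenpropimorph 2 (adjusted p = 0.0494).

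LYS20, of the entry step that LYS21 also catalyses, and LYS1, of the closing step, were compared as the difference between 2 genes on the same array. LYS20 was compared with LYS21 in the same way. Of the 8 members, LYS20 had the highest and LYS1 the lowest log2 fold change with tomatine (0.18 and -0.42). With fenpropimorph LYS20 had the lowest and LYS1 the highest (-0.32 and 0.34). Large shifts of this pair thus follow from how it was chosen. Pairs were chosen with the values known, 6 comparisons were made, and with 3 arrays against 3 the exact permutation test cannot go below p = 0.1. The log2 difference LYS1 minus LYS20 was -3.24 ± 0.0608 in control, -3.84 ± 0.124 with tomatine and -2.58 ± 0.119 with fenpropimorph (SD, n = 3; levels of 2 probe sets are not comparable, only the shifts are). The tomatine shift was -0.60 and the fenpropimorph shift 0.66, each with no overlap with control (exact two-sided permutation p = 0.1, adjusted p = 0.15). Without tomatine 1 or tomatine 3 the tomatine shift was -0.67 and -0.54, and without fenpropimorph 3 the fenpropimorph shift was 0.59. With tomatidine the shift was -0.12, with overlap (exact two-sided permutation p = 0.3).

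For the synthase pair, LYS20 minus LYS21 shifted by -0.40 with fenpropimorph, with all 3 arrays below control (exact two-sided permutation p = 0.1, adjusted p = 0.15). The shift was 0.16 with tomatidine (exact p = 0.1, adjusted p = 0.15) and 0.09 with tomatine (exact p = 0.7). At this number of arrays none of the 6 could pass.

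**Figure D3:**
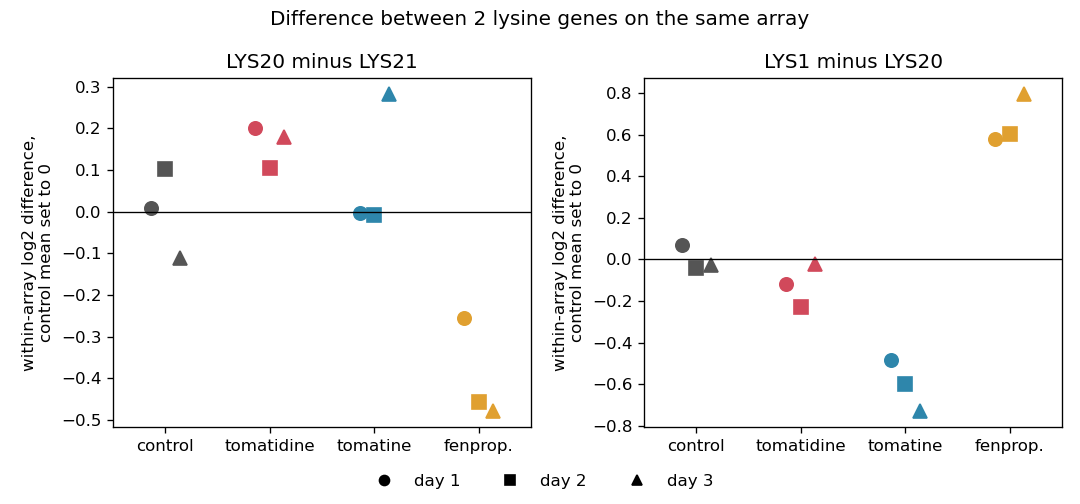
Within-array log2 difference (y axis, control mean set to 0) of LYS20 minus LYS21, left, and LYS1 minus LYS20, right, on each of 12 arrays by treatment (x axis; fenprop. is fenpropimorph) and day (symbol). Tomatine and fenpropimorph arrays lie on opposite sides of control for LYS1 minus LYS20.

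Genes that serve the pathway were read from a list of helpers, of which 6 of 7 were measured. With tomatidine 0 of these 6 passed (limma; 4 at an unadjusted p under 0.05), at a median log2 fold change of 0.22. With tomatine 0 passed (0 at an unadjusted p under 0.05) and with fenpropimorph 0 passed (2 at an unadjusted p under 0.05), where LYS5 passed in 5 of 16 alternatives (0.0336 to 0.0464). Over all 9275 probe sets, 412, 404 and 2808 passed with tomatidine, tomatine and fenpropimorph. LYS5, whose product arms Lys2 with its cofactor, had log2 fold changes of 0.04, -0.01 and 0.14 with tomatidine, tomatine and fenpropimorph. ARO8, a transaminase that can form aminoadipate, had 0.16, 0.00 and 0.05. The oxodicarboxylate carriers ODC1 and ODC2, which carry pathway intermediates across the mitochondrial membrane, had 0.35 and 0.43 with tomatidine (adjusted p = 0.146 and 0.147). With the day as a replicate block ODC2 passed (adjusted p = 0.0376).

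Of 10 measured genes of lysine transport and tRNA charging, 0 passed with tomatidine (limma; 2 at an unadjusted p under 0.05), 1 was lower with tomatine (YPQ3, log2 fold change -0.54, adjusted p = 0.0358, lost with the day as a replicate block at 0.0503, with only the 2 compared groups at 0.0632 and without any 1 of its 6 arrays at 0.0532 to 0.111) and 4 were lower with fenpropimorph. Of all probe sets, 16.9% were called lower with fenpropimorph and 4.36% in either direction with tomatine. With tomatidine the log2 fold changes of the 10 ran from -0.16 to 0.42, at a median of -0.01. Set against tomatidine, 1 of the 10 was lower with tomatine, against 2.89% of all probe sets. LYP1, the lysine permease of the plasma membrane, fell 1.25-fold with fenpropimorph (log2 fold change -0.33 ± 0.07, limma adjusted p = 0.00409). The vacuolar basic amino acid transporter genes YPQ1 and YPQ2 fell with it (log2 fold changes -0.38 and -0.28, adjusted p = 0.00251 and 0.00894), and these 3 calls held in all 16 alternatives, while that of the permease gene ALP1 (-0.26, adjusted p = 0.0499) was lost in 12 of 15. VBA1, a vacuolar transporter gene, passed as higher with fenpropimorph in 7 alternatives (0.02 to 0.05), against 0.065 as reported. With tomatidine and tomatine LYP1 had log2 fold changes of -0.04 (95% interval -0.19 to 0.11) and 0.08 (95% interval -0.07 to 0.23). KRS1, the cytosolic lysyl-tRNA synthetase, had 0.19, 0.12 and -0.13 with tomatidine, tomatine and fenpropimorph, and none passed.

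The 2-oxoglutarate that homocitrate synthase uses comes from the citrate branch, whose genes answer in part to retrograde signalling from mitochondria. Of the 11 genes of this list, 2 rose and 1 fell with tomatidine, and 1 rose with tomatine. Over all 9275 probe sets, 412 were called with tomatidine and 404 with tomatine. With fenpropimorph 5 genes of the list rose and 2 fell, against 13.4% called higher and 16.9% called lower over all probe sets. With the day as a replicate block the tomatine count of the list was 2, since PYC1 passed as well (adjusted p = 0.0462, 0.135 without the block). CIT1 passed as lower with tomatine in 7 of 16 alternatives (0.0214 to 0.0464), against 0.0539 as reported. Without control 1 or control 3 the 5 rises with fenpropimorph were 3. CIT2, the peroxisomal citrate synthase, rose 2.84-fold with fenpropimorph (log2 fold change 1.51 ± 0.118, limma adjusted p = 1.69e-06) and 1.4-fold with tomatidine (0.49, adjusted p = 0.0389). The tomatidine call of CIT2 was lost without control 1, 2 or 3 or tomatidine 2 (adjusted p = 0.144, 0.111, 0.0623 and 0.141). It was also lost with only the 2 compared groups (0.0935). DLD3, a 2-hydroxyglutarate transhydrogenase, rose 2.36-fold with tomatidine and 2.29-fold with fenpropimorph (adjusted p = 0.000384 and 6.68e-05), and its 1.61-fold rise with tomatine (adjusted p = 0.0258) was lost without control 1 or 2 or any 1 tomatine array (0.0576 to 0.0978). PYC1, pyruvate carboxylase, rose 2.3-fold with fenpropimorph (adjusted p = 7.42e-05). Smaller changes with fenpropimorph were those of the isocitrate dehydrogenase subunit IDH2 (-0.30, adjusted p = 0.00817) and aconitase ACO1 (-0.22, adjusted p = 0.0341), both lower, and of the retrograde regulators RTG3 (0.28, adjusted p = 0.0301) and RTG2 (0.22, adjusted p = 0.0238), both higher. CIT1, the mitochondrial citrate synthase, fell with tomatidine (-0.34, adjusted p = 0.0459). Of these 5 calls, that of IDH2 held in all 16 alternatives and the others were lost in 5 to 7, that of CIT1 also with the day as a replicate block (0.0571). MKS1, a negative regulator of retrograde genes whose loss raises lysine synthesis, had 0.18, 0.16 and 0.12 with tomatidine, tomatine and fenpropimorph, none past the test. On the fenpropimorph arrays LYS20 and LYS12 were lower, LYS1 was higher and the other lysine genes did not pass. Of this list CIT2, DLD3, PYC1, RTG2 and RTG3 were higher there, and IDH2 and ACO1 lower. With tomatidine 7 of the 8 lysine genes were higher, as were CIT2 and DLD3, while CIT1 was lower and PYC1 did not pass. A link between the 2 lists was not tested.

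GCN4 mRNA did not pass in any comparison with control (log2 fold changes 0.15, 0.07 and -0.06 with tomatidine, tomatine and fenpropimorph, 95% interval 0.01 to 0.30 for the first). GCN4 is regulated mainly through translation, which arrays do not read. Among 12 regulators of the general control, 0 passed with tomatidine (limma, 1 at an unadjusted p under 0.05) and 0 with tomatine (6 at an unadjusted p under 0.05). Over all 9275 probe sets, 412 passed with tomatidine and 404 with tomatine. With fenpropimorph 4 of the 12 were lower, against 16.9% of all probe sets. These were the translation initiation factor genes GCD7 (-0.42), GCD11 (-0.32), SUI3 (-0.30) and GCN3 (-0.19; adjusted p = 0.0393, lost in 8 of 16 alternatives, the replicate block among them at 0.0507). With tomatine all 12 log2 fold changes were above 0 on the brightest probe set of each gene, at a median of 0.14. The brightest of GCN1 gave 0.15, while its other probe sets ran from -0.55 to 0.06, none of them passing. For 8 of the 12 the tomatine arrays lay wholly above control, against 14.1% of all probe sets. The tomatine count of 0 became 1 or 2 in 9 of 16 alternatives: SUI2 (0.0534 as reported) passed in 9, with the day as a replicate block among them (0.0454), and GCD1 (0.0717) in 5.

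**Figure D4:**
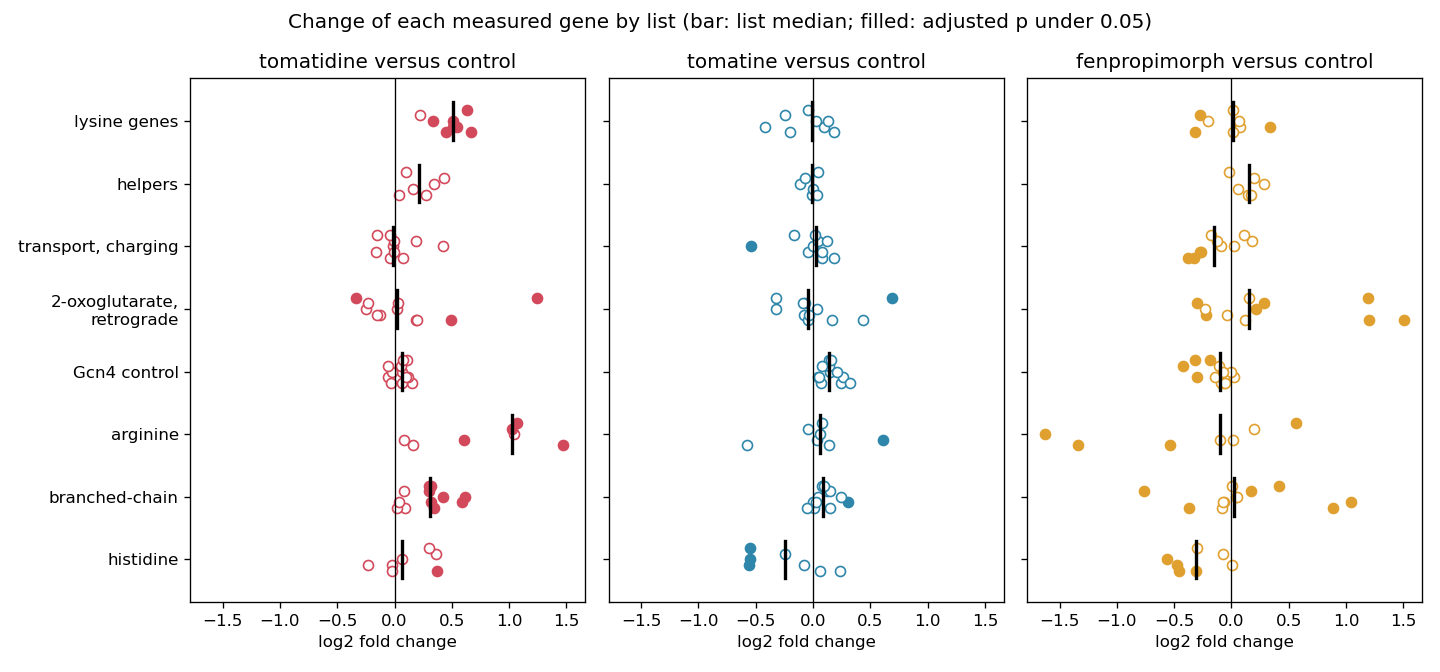
Log2 fold change against control (x axis) of every measured gene in the lysine list and 7 related lists, for the 3 compounds. Black bars are list medians and filled points have an adjusted p under 0.05. With tomatidine the lysine list has its median at 0.51, with 7 of 8 points filled.

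Other amino acid pathways gave different counts, listed here with no test between lists. With tomatidine, 4 of 7 measured arginine genes rose (median log2 fold change 1.02), 8 of 12 branched-chain genes (median 0.31) and 1 of 7 histidine genes (median 0.07). Of all probe sets, 2.53% were called higher. The arginine genes that rose were ARG1, ARG7, ARG4 and CPA1, at log2 fold changes of 1.47, 1.07, 1.02 and 0.60 (limma adjusted p from 0.000152 to 0.0157). The ARG1 call was lost without tomatidine 1 (0.0677) or tomatidine 3 (0.0548). With only the 2 compared groups ARG1 and CPA1 were both lost (0.0794 and 0.0533). Beside the leucine genes below, the branched-chain genes were ILV3 (0.42), ILV2 (0.32), BAT1 (0.32), ILV6 (0.30) and ILV5 (0.30), and the histidine gene was HIS1 (0.37). The branched-chain count was 5 without control 1, 2 or 3 and 2 without tomatidine 1. The histidine count ran from 0 to 2: HIS1 was lost without control 2 or 3 or tomatidine 1 or 2 (adjusted p = 0.111, 0.082, 0.0991 and 0.132), and HIS4 passed in 8 of 16 alternatives, the replicate block among them (0.04). HIS1 was also lost with only the 2 compared groups (0.0624). With tomatine, 1 of 7 arginine genes and 1 of 12 branched-chain genes rose, and 3 of 7 histidine genes fell. These were CPA1 (0.61), ILV2 (0.30), HIS7 (-0.56), HIS5 (-0.55) and HIS3 (-0.55). Over all 9275 probe sets, 240 were called higher and 164 lower with tomatine. The tomatine counts of these lists rested on single arrays. The 3 histidine calls all went without control 1, 2 or 3 or tomatine 2 or 3 (adjusted p from 0.0541 to 0.112), that of ILV2 without any 1 of its 6 arrays (0.0589 to 0.104), and that of CPA1 without tomatine 3 (0.063). With only the 2 compared groups, the tomatine calls of CPA1 (0.063), ILV2 (0.0776), HIS5 (0.137) and HIS7 (0.0528) were lost. With fenpropimorph, arginine had 1 higher and 3 lower, branched-chain 4 higher and 2 lower, and histidine 0 higher and 4 lower. The shares over all probe sets were 13.4% called higher and 16.9% called lower. ARG3, ARG1 and ARG8 were lower (-1.62, -1.34 and -0.54) and ARG7 higher (0.56), with ARG8 lost in 7 of 15 alternatives (without 5 of its 6 arrays at 0.0674 to 0.123), while HIS3, HIS7, HIS6 and HIS1 were lower (-0.57, -0.48, -0.45 and -0.31). BAT1 and ILV5 were higher (0.41 and 0.17) and ILV1 lower (-0.37). The call of ILV5 (adjusted p = 0.0401) was lost with the day as a replicate block (0.0513) and in 6 other alternatives, and that of HIS1 without control 1 or fenpropimorph 2 or 3 (0.0567, 0.0616 and 0.0501).

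The leucine branch repeats the chemistry of the lysine entry steps with other substrates: LEU4 and LEU9 are isopropylmalate synthases, LEU1 an isomerase of the aconitase family like LYS4, and LEU2 a dehydrogenase related to LYS12. With tomatidine LEU4 was 1.54-fold and LEU2 1.5-fold above control (0.62 ± 0.0936 and 0.58 ± 0.0968 on the log2 scale, limma adjusted p = 0.00249 and 0.00458), beside 1.59-fold for LYS20 and a LYS12 value of 0.22 on the log2 scale. LEU1 rose 1.27-fold (adjusted p = 0.0268), a call lost with only the 2 compared groups (0.0788) and without control 1 (0.107), control 3 (0.082), tomatidine 1 (0.104) or tomatidine 2 (0.124). With tomatine none of LEU4, LEU9, LEU1 and LEU2 passed (log2 fold changes 0.05, 0.15, 0.14 and 0.00).

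Under fenpropimorph LEU1 was 1.85-fold and LEU2 2.06-fold above control (0.89 and 1.05 on the log2 scale, limma adjusted p = 3.62e-06 and 7.09e-06), where LYS4 and LYS12 had -0.20 and -0.28. LEU9 fell 1.7-fold (log2 fold change -0.76, adjusted p = 6.17e-05) and LEU4 had 0.05. The other probe sets of LEU2 gave 0.78 and 1.19. The difference between the lysine and the leucine genes was not tested.

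**Figure D5:**
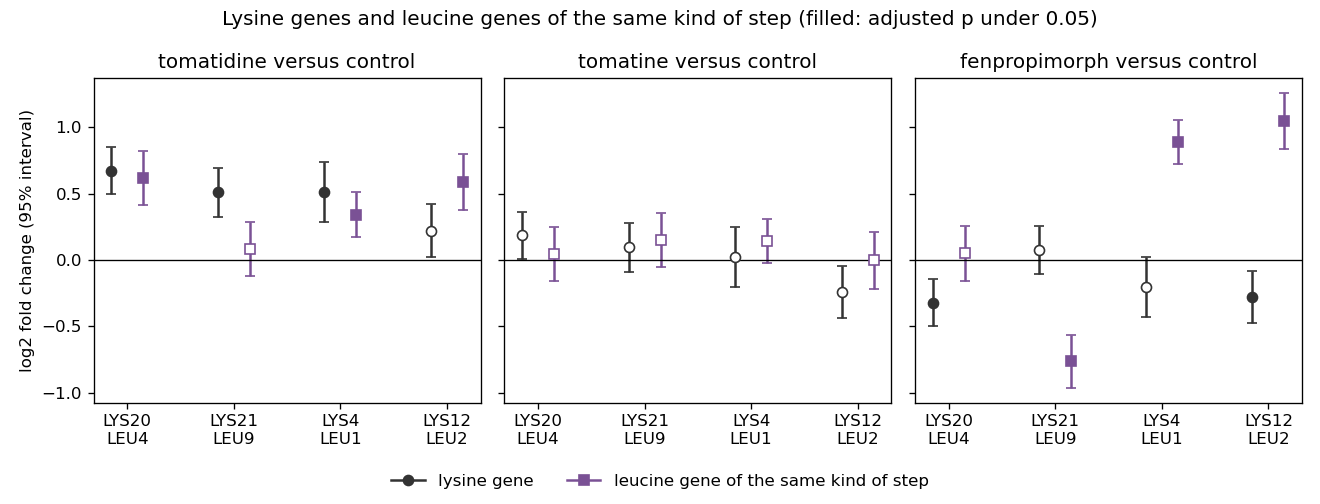
Log2 fold change against control (y axis) with 95% intervals for lysine genes (circles) and leucine genes of the same kind of step (squares), for the 3 compounds. Filled points have an adjusted p under 0.05, and the synthases are paired in no particular order. With fenpropimorph LEU1 and LEU2 are at 0.89 and 1.05, while LYS4 and LYS12 are at -0.20 and -0.28.

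Likeness to the lysine enzymes was measured as the root mean square difference, over 12 arrays, between a gene's log2 values and the mean of the 7 enzyme genes, each taken relative to its own control mean. Among 5648 other genes the median difference was 0.323. The 8 nearest were HOM2 (0.111), ARO3 (0.116), LEU4 (0.132), VTC4 (0.132), GGC1 (0.134), HIS4 (0.135), PHO84 (0.145) and POC4 (0.15). HOM2, ARO3, LEU4 and HIS4 encode enzymes of threonine and methionine, aromatic, leucine and histidine synthesis. The others, VTC4, GGC1, PHO84 and POC4, do not encode enzymes of amino acid synthesis. HIS4 and POC4 were not called with tomatidine (limma adjusted p = 0.0568 and 0.0646). The enzyme genes themselves ranged from 0.0938 (LYS9) to 0.265 (LYS1), with LYS20 at 0.213 and LYS12 at 0.201. The 8 genes were picked as the nearest of 5648, so no conclusion is drawn from enzymes lying farther away. Without tomatidine 1, 5 of the 8 genes were again among the nearest.

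LYS20 alone had GGC1 (0.141), INA1 (0.178) and HIS1 (0.183) as its nearest genes. For LYS21 they were TRP3 (0.0931), ARO3 (0.105) and LEU4 (0.119), so that the synthase paralogues shared none of their 3 nearest. Lists of 3 genes out of 5648 do not measure how far the paralogues differ. RVB2 (0.0697), LST4 (0.0855) and PHO84 (0.0902) were nearest to LYS14, whose own changes were small.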

How the data were processed

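The authors made probe set intensities with RMA, per the submitters' processing notes; its version and settings are not given in the sources used here. The deposited intensities were linear (1.84 to 21252), so they were put on the log2 scale. Without 60 control probe sets, 9275 were tested. Genes come from the platform annotation: 6504 probe sets name 1 gene, and the brightest by mean over 12 arrays stood for each gene. RefSeq's R64 table gave current symbols, and no sequences are shown. One linear model with 4 groups was fitted in limma 3.58.1 (R 4.3.3), two-sided, Benjamini-Hochberg adjusted over 9275 probe sets, and checked on simulated data. Members and lists were chosen with earlier results of these data known. The lists are helpers, transport and charging, 2-oxoglutarate supply, general control, arginine, branched-chain and histidine synthesis, and mating type markers. All members were named, with list genes called against control, fixed list genes and nearest-pattern genes. The labels give replicates a shared day, which pairs them; same-day deviations correlated at 0.0351 on average (18 pairs, -0.203 to 0.236). Day was a block in an alternative. Figures used matplotlib 3.10.9.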

Additional observations from a re-analysis of the deposited data

How the results depend on the processing

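Of 16 alternatives per comparison, 58 of 762 log2 fold changes of lysine genes crossed the threshold and none of the called ones changed sign. The tomatine count of 0 lower genes became 1 (LYS1) with the day as a replicate block, with 16 added before the log, with dim probe sets left out, with 1 probe set per gene, with a gene's probe sets averaged and with a trended robust prior. The replicate block also ended the tomatidine call of LYS14 and changed no other call of a lysine gene. For fenpropimorph against control, 2 lower became 1 with centred array medians and 1 higher became 0 with array weights. With array weights LYS4 also passed as a further lower gene. Against tomatine, 1 lower with fenpropimorph became 2 with array weights. Causes were not tested. Leaving out 1 array gave 3 to 5 higher genes for tomatidine, 0 to 1 higher and 1 to 2 lower for fenpropimorph, 4 to 7 lower for tomatine against tomatidine, 5 to 7 lower for fenpropimorph against tomatidine and 1 to 2 higher for fenpropimorph against tomatine. The shift of LYS1 minus LYS20 was -0.67 to -0.54 with tomatine and 0.59 to 0.70 with fenpropimorph.

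Over all probe sets, 412 were called with tomatidine and 404 with tomatine. These were 221 to 339 and 83 to 276 without 1 array, and 252 and 121 with only the 2 compared groups. With tomatine they were 625 with 16 added, 645 with 1 probe set per gene and 637 with the mean. Tomatine against tomatidine gave 472, 261 with only those groups and 261 to 367 without 1 array. Over all alternatives the count of genes higher with tomatidine was 2 to 8 for branched-chain synthesis (8 as reported) and 2 to 5 for arginine synthesis (4 as reported, 5 with the replicate block, where ARG3 passed). LYS14 was itself left out with the dim probe sets. No detection calls were used here, so whether its dim signal is above background is unknown.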

Other observations

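Within several groups the highest and lowest arrays of the lysine genes often fell on the same days. The 8 genes were read on the same arrays, so they are not separate observations, and no share over all probe sets was counted. Day 1 held the highest array for 6 of 8 genes in control, 6 in tomatidine, 4 in tomatine and 5 in fenpropimorph, and day 2 the lowest for 5, 6, 4 and 6. In a fit with the day as a term, the day gave an unadjusted p under 0.05 for LYS12 (0.0485), LYS9 (0.0198) and LYS1 (0.0479). None passed after adjustment (limma adjusted p = 0.775 for each), and of all 9275 probe sets 0 passed and 579 had an unadjusted p under 0.05.

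Alpha-specific genes, which mark the mating type of the strain, fell on the same arrays: 2 of 4 with tomatidine, 4 of 4 with fenpropimorph and 0 of 4 with tomatine. With tomatidine all 4 were lower at an unadjusted p under 0.05, and with tomatine 0 were (limma). Over all 9275 probe sets, 177 were called lower with tomatidine and 16.9% with fenpropimorph. Of the 6 a-specific genes, 0 passed with tomatidine and tomatine (limma, 0 at an unadjusted p under 0.05 in both). BAR1 alone was higher with fenpropimorph (log2 fold change 0.39, limma adjusted p = 0.033), against 13.4% of all probe sets called higher.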
